A study of Mus musculus with 4 samples.

Results

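The BMP-SMAD-Id axis was followed here through 10 genes, taken by symbol from the table of read counts: Bmp4, Bmpr1a, Bmpr2, Smad1, Smad5, Smad6, Id1, Id2, Id3 and Id4. All 10 had a row among the 37991 genes of the table, and all 10 passed the filter on low counts that left 14027 genes for testing. RNA sequencing was done on mouse embryonic stem cells null for both B-type lamins (dKO, 2 biological replicates) and on wild-type cells (wt, 2 biological replicates). All 4 libraries carry the strain label ZHBTc4, a line known for expressing Oct4 from a transgene that tetracycline represses. Lamins are the filament proteins under the inner nuclear membrane. Each genotype may be 1 line, so loss of the lamins and a difference between lines cannot be told apart. Nothing in the labels says that the replicates came from separate derivations, so p-values measure the spread between these samples only.

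BMP ligands bind a complex of type I and type II receptor kinases at the cell surface. The type I receptor phosphorylates SMAD1 and SMAD5, which enter the nucleus with SMAD4 and activate target genes, and SMAD6 holds the pathway back. The Id genes are the classical targets. Id proteins have a helix-loop-helix domain without a DNA-binding region, and they occupy E proteins that neural and muscle transcription factors need as partners. In mouse embryonic stem cells this route is known for restraining neural differentiation alongside the cytokine LIF.

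The libraries held 16697970 and 16584014 counts for dKO replicates 1 and 2, and 12899964 and 14941952 for wt replicates 1 and 2. The targeted transcripts matched the labels: Lmnb1 had 69 and 101 counts in dKO cells against 8538 and 8321 in wt cells, and Lmnb2 had 41 and 55 in dKO cells against 1343 and 1787 in wt cells. Embryonic stem cell markers were abundant throughout, with 6164 and 6258 summed CPM (read counts scaled to library size with TMM factors) over 8 genes in dKO libraries and 5384 and 5113 in wt libraries. Zfp42, L1td1 and Esrrb led them, with log2 fold changes of 1.17, 0.14 and 0.32 (edgeR adjusted p = 0.0886, 0.984 and 0.907). The direction was split over the 8 genes, 4 being higher and 4 lower in dKO cells. Their median log2 fold change was 0.02. Most of the gap in summed CPM came from Zfp42, whose mean was 1442 CPM in dKO and 640 CPM in wt libraries. Fibroblast markers were scarce, at 4.85 and 5.91 summed CPM over 9 genes in dKO and 7.27 and 12.4 in wt libraries, with S100a4 at 0 in all 4. Of these, Thy1 and Col1a1 had log2 fold changes of -0.04 and -0.83, and Pdgfrb had 0.0614 and 0.418 CPM in dKO and 1.02 and 3.68 CPM in wt libraries (edgeR adjusted p = 0.720). The 8 blood and endothelial markers summed to 246.9 and 390.7 CPM in dKO and 216.2 and 290.8 CPM in wt libraries. Most of each sum came from Pecam1 and Laptm5. Of the 8, 4 were under 1 CPM in every library, with Hbb-bs at 0 in all 4 libraries. Pecam1, Laptm5 and Kdr led these by count, with log2 fold changes of 0.10, 0.60 and -0.80 (edgeR adjusted p = 0.994, 0.790 and 0.844). Libraries with the same replicate number resembled each other: the chi-square per degree of freedom was 13.0 between both replicates 1 and 15.3 between both replicates 2, against 20.0 between the dKO replicates and 20.1 between the wt replicates. No pair agreed within sampling noise, and all 4 were used.

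With genotype alone in the model, none of the 10 genes passed the test between dKO and wt cells (0 of 10 by the quasi-likelihood test of edgeR at a threshold of 0.05 on the adjusted p, which 0.0855% of all genes tested passed). At an unadjusted p under 0.05 there were also 0 of 10, beside 5.57% of all genes, and DESeq2 and limma-voom called 0 as well. Their log2 fold changes ran from -0.79 for Smad6 to 0.37 for Id4, with a median of 0.11 and a median size of 0.20, against -0.002 and 0.16 over all genes. The 95% interval of the log2 fold change lay within 1 of 0, that is within 2-fold, for 6 of the 10 (65.5% of all genes). It did not for Smad6, Id1, Id3 and Id4, so a 2-fold difference in these was not excluded at this replication with genotype alone in the model. With the replicate number added as a block, the intervals were -0.18 to 0.40 for Id1, -0.72 to -0.31 for Id3 and -0.02 to 0.74 for Id4. That of Smad6 was -1.42 to -0.11. The labels tie replicate numbers to no batch or day. In bulk RNA, fewer cells expressing a gene and less RNA per cell cannot be told apart.

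**Figure D1:**
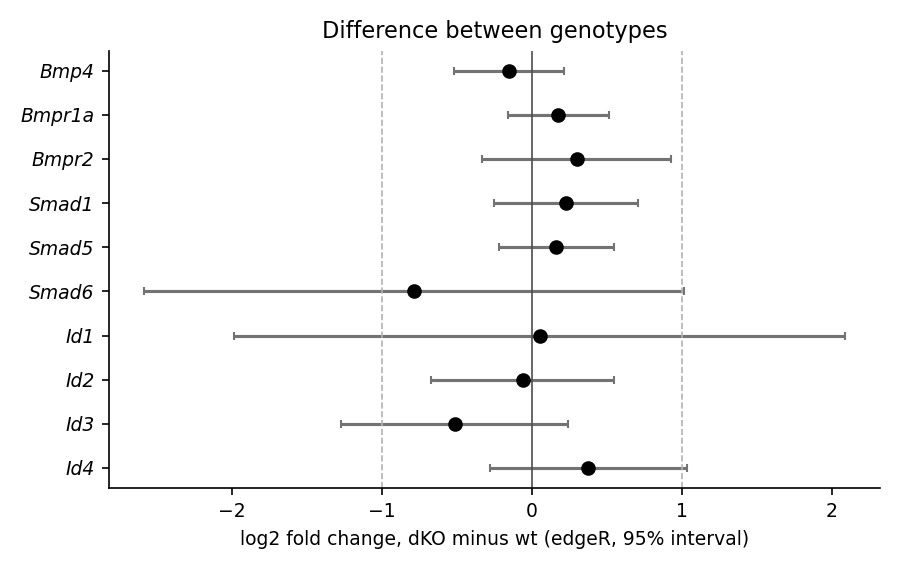
Log2 fold change of each gene, dKO minus wt, with its 95% interval from edgeR (2 libraries per genotype), and dashed lines at a 2-fold difference. With genotype alone in the model, all 10 intervals include 0, and the widest belong to Id1 and Smad6.

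Bmp4, the ligand (ENSMUSG00000021835, chromosome 14, 47003195 to 47010344), had 43.9 and 36.5 CPM in the dKO libraries, against 45.7 and 43.8 CPM in the wt libraries. The genotypes overlapped by a narrow margin, dKO replicate 1 lying just above wt replicate 2. On the log2 scale dKO minus wt came to -0.15 (SE 0.15, 95% interval -0.52 to 0.21), and the adjusted p in edgeR was 0.981.

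Bmpr1a, the type I receptor (ENSMUSG00000021796, chromosome 14, 35223920 to 35316527), had 69.9 and 81.1 CPM in dKO and 64.0 and 69.6 CPM in wt libraries. Bmpr2, the type II receptor (ENSMUSG00000067336, chromosome 1, 59821481 to 59927703), had 11.1 and 10.2 CPM in dKO and 7.19 and 10.1 CPM in wt libraries. Both dKO values stood above both wt values for each receptor, by a small margin. The log2 fold changes were 0.18 for Bmpr1a (95% interval -0.16 to 0.51) and 0.30 for Bmpr2 (-0.33 to 0.93), with edgeR adjusted p = 0.973 and 0.978.

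Smad1 (ENSMUSG00000031681, chromosome 8, 81862294 to 81923417) had 14.4 and 15.5 CPM in dKO and 13.7 and 11.8 CPM in wt libraries, again without overlap. Its partner in signal transduction, Smad5 (ENSMUSG00000021540, chromosome 13, 56804371 to 56843738), had 37.5 and 32.5 CPM in dKO and 33.1 and 29.4 CPM in wt libraries, and the genotypes overlapped. The log2 fold changes were 0.23 for Smad1 (95% interval -0.25 to 0.71) and 0.16 for Smad5 (-0.22 to 0.54), with edgeR adjusted p = 0.978 and 0.981. Bmpr1a, Bmpr2 and Smad1 were the 3 of 10 genes whose genotypes did not overlap. With 2 libraries per genotype that was so for 33.6% of all genes, so the share among the 10 was close to the background.

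Smad6, the inhibitory SMAD (ENSMUSG00000036867, chromosome 9, 63800883 to 63869866), had the fewest counts of the 10, with 14 and 41 in dKO libraries and 17 and 66 in wt libraries. These were 0.860 and 2.45 CPM in dKO and 1.33 and 4.34 CPM in wt cells. The genotypes overlapped, and replicate 2 was the higher library in each. The log2 fold change of -0.79 had a 95% interval of -2.59 to 1.01 (edgeR adjusted p = 0.981), and without wt replicate 2 it was 0.32.

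**Figure D2:**
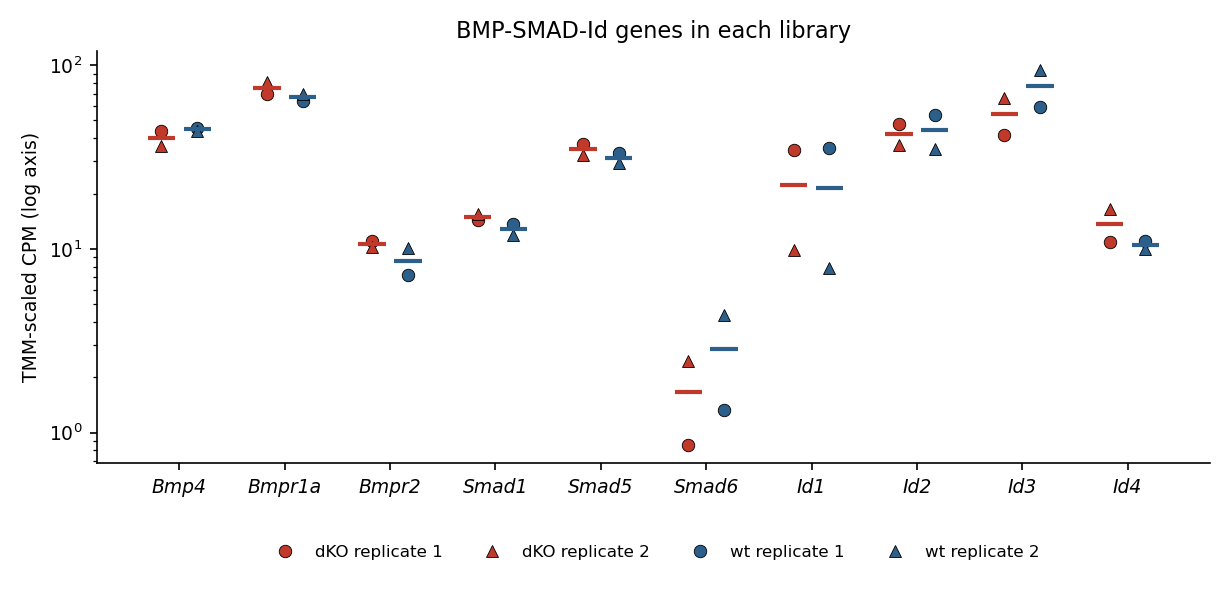
TMM-scaled CPM of each gene in the 4 libraries on a log axis, dKO left of wt, circles for replicate 1, triangles for replicate 2 and bars for the mean of 2. For Id1 and Smad6 the symbols of 1 genotype lie farther apart than the bars of the genotypes.

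Id1 and Id2 differed more between libraries of 1 genotype than between genotypes, while for Id3 and Id4 both gaps were of similar size. Id1 (ENSMUSG00000042745, chromosome 2, 152561987 to 152563146) had 34.7 and 9.84 CPM in dKO replicates 1 and 2, against 35.3 and 7.82 CPM in wt replicates 1 and 2. Replicate 1 was thus 3.52-fold above replicate 2 in dKO cells and 4.52-fold above it in wt cells, while dKO and wt libraries of the same number lay close together. The log2 fold change between genotypes was 0.05 (edgeR adjusted p = 0.997), with an interval of -1.98 to 2.08. Its sign turned with single libraries. It was positive when wt replicate 1 (1.50) or dKO replicate 2 was left out, and negative when wt replicate 2 (-0.67) or dKO replicate 1 (-1.12) was. For this and every other gene, a left-out library sets both replicate numbers of a genotype against a single number of the other. The gap between replicates therefore enters these values.

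Id3 (ENSMUSG00000007872, chromosome 4, 135699412 to 135701670) was ordered the other way. It had 41.6 and 66.4 CPM in dKO replicates 1 and 2, against 59.4 and 94.7 CPM in wt replicates 1 and 2. Replicate 2 was 1.60-fold above replicate 1 in dKO cells and 1.59-fold above it in wt cells. The genotypes overlapped because dKO replicate 2 exceeded wt replicate 1. Within each replicate number dKO stood below wt, at 0.700 of the wt level for replicate 1 and 0.701 for replicate 2. The mean was 54.0 ± 17.6 CPM in dKO and 77.1 ± 25.0 CPM in wt cells (SD, n = 2 each). The fitted log2 fold change was -0.51, with an SE of 0.31 and a 95% interval from -1.27 to 0.24 (edgeR adjusted p = 0.947). Id3 had the lowest p-value of the 10, and it was not called with genotype alone in the model. With the replicate number added as a block it was called (log2 fold change -0.51, 95% interval -0.72 to -0.31, edgeR adjusted p = 0.0013). That fit called 9.26% of all genes, and the labels tie replicate numbers to no batch or day. With a library left out the log2 fold change of Id3 ranged from -0.89 to -0.14, the smallest without wt replicate 2.

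Id2 (ENSMUSG00000020644, chromosome 12, 25778666 to 25780957) had 47.6 and 37.0 CPM in dKO libraries, against 53.6 and 34.8 CPM in wt libraries. Like Id1, it was higher in replicate 1 of each genotype, and the dKO values lay inside the wt range. Its log2 fold change was -0.06 (95% interval -0.67 to 0.55, edgeR adjusted p = 0.995), and its sign also turned with single libraries, to 0.28 when wt replicate 1 was left out and to 0.11 when dKO replicate 2 was. Id4 (ENSMUSG00000021379, chromosome 13, 48356796 to 48359405) had 10.9 and 16.5 CPM in dKO libraries, against 11.1 and 9.99 CPM in wt libraries. One library, dKO replicate 2, stood above the other 3. The log2 fold change of Id4 was 0.37 (95% interval -0.28 to 1.03, edgeR adjusted p = 0.967), and 0.05 without dKO replicate 2.

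Because Id1 and Id2 were ordered against Id3, the total of the 4 Id genes was nearly level between replicates of each genotype. It came to 134.7 and 129.7 CPM in the dKO libraries, against 159.5 and 147.3 CPM in the wt libraries. The genotypes did not overlap in this sum, as was so for 33.6% of all single genes tested. The sum averaged 132.2 ± 3.55 CPM in dKO and 153.4 ± 8.60 CPM in wt cells (SD, n = 2 each), a ratio of 0.862. These SDs are small because the opposite orders of the genes between replicates offset each other. The lower sum in dKO cells came mainly from Id3. Mean CPM in dKO and wt cells was 54.0 and 77.1 for Id3, and 42.3 and 44.2 for Id2. It was 22.3 and 21.6 for Id1, and 13.7 and 10.5 for Id4. The sum was put together from genes chosen with earlier results known, and no test was made of it.

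What the total was made of shifted between libraries. Id1 supplied 25.8% of the Id counts in dKO replicate 1 (95% Wilson interval 24.0 to 27.6) and 7.59% in dKO replicate 2 (6.55 to 8.78). In wt cells it supplied 22.2% in replicate 1 (20.4 to 24.0) and 5.31% in replicate 2 (4.46 to 6.32). Id3 supplied 30.9% (29.0 to 32.8) and 51.2% (49.1 to 53.3) in dKO replicates 1 and 2, against 37.3% (35.2 to 39.4) and 64.3% (62.3 to 66.3) in wt replicates 1 and 2. These are shares of counts, with no correction for length. Per kb of exon, Id3 stood at 0.776 times Id1 in dKO and 1.09 times Id1 in wt cells in replicates 1. In replicates 2 the same ratio of levels per kb was 4.37 in dKO and 7.84 in wt cells. The intervals cover counting error only, since reads are not independent molecules.

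**Figure D3:**
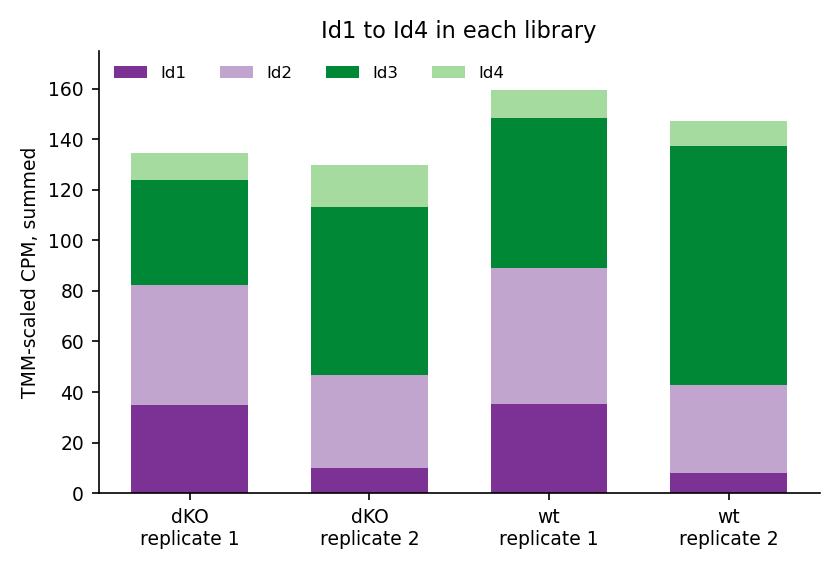
TMM-scaled CPM of Id1, Id2, Id3 and Id4 stacked for each library. The stacks reach 134.7 and 129.7 in dKO and 159.5 and 147.3 in wt, and the Id1 layer is thin in both replicates 2.

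Gaps between replicates differed from gene to gene. Measured as log2 CPM with a prior count of 2, the mean gap between libraries of 1 genotype exceeded the gap between genotype means for 7 of the 10 genes, beside 66.4% of all genes. The exceptions were Bmpr1a, Bmpr2 and Smad1. A gap of at least 1.5-fold in the same direction in both genotypes was seen for 3 of the 10, Id1, Id3 and Smad6, and for 10.2% of all genes. Bmp4, Bmpr1a, Bmpr2, Smad1, Smad5, Id2 and Id4 did not meet this criterion. No test was made between replicate numbers, which the labels tie to no batch or day. Krt8, a keratin of simple epithelia, also differed between the same libraries, at 64.2 and 175.7 CPM in dKO replicates 1 and 2 and 127.5 and 249.5 CPM in wt replicates 1 and 2. It carried most of the gap in its list of 11 early differentiation markers, whose summed CPM was 194.7 and 313.1 in dKO and 260.1 and 402.5 in wt libraries. The other 10 summed to 130.6 and 137.3 CPM in dKO and 132.6 and 153.0 CPM in wt libraries, with Otx2 (log2 fold change -0.24 between genotypes) and Pax6 (0.05) the most abundant by count. The part of cells with Krt8 in the Id and Smad6 values was not tested.

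**Figure D4:**
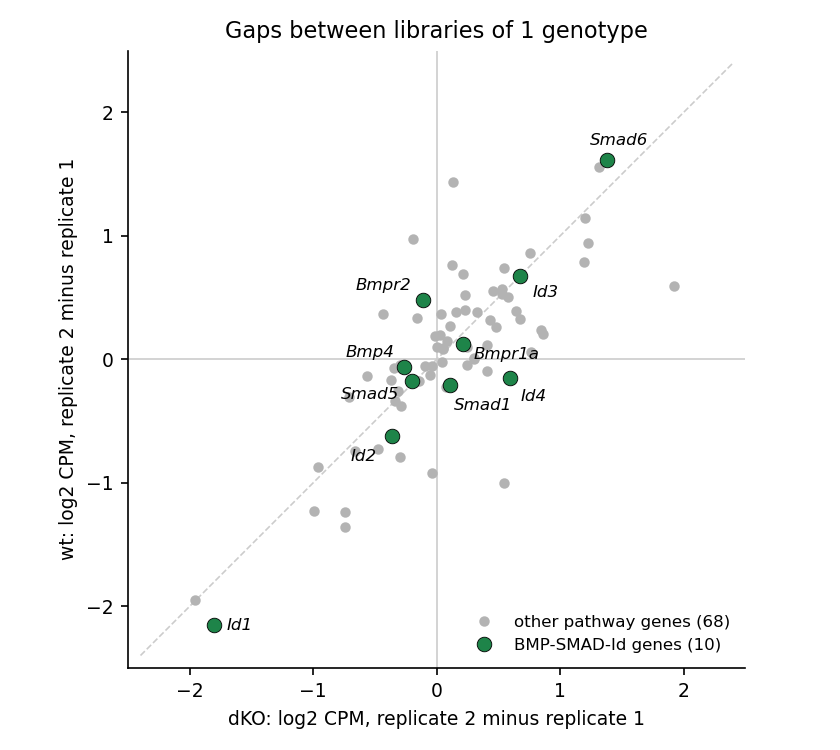
Difference in log2 CPM (prior count 2) between replicate 2 and replicate 1, in dKO cells on the x axis and in wt cells on the y axis, for the 10 genes (green) and 68 other pathway genes (grey). Id1 lies at the lower left, Smad6 and Id3 at the upper right, and the dashed line marks equal gaps.

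The promoters of the Id genes and Smad6 are shown because these are the SMAD-responsive members, and Id2 was ordered against Id3 and Smad6 between replicates. The windows are from RefSeq on GRCm38.p6 and run from 250 bases before to 50 after the annotated start, 5′ to 3′ on the gene's strand. RefSeq windows were matched for 9 of the 10 genes, Id1 not among them. Id2 is at chr12:25096043-25096342 (minus strand), Id3 at chr4:136143572-136143871 (plus), Id4 at chr13:48260866-48261165 (plus) and Smad6 at chr9:64022010-64022309 (minus). Capitals mark GGCGCC, the GC-rich element bound by BMP-specific SMADs, its variant GGAGCC on either strand, and GTCTAGAC, the palindrome of a pair of SMAD half-elements GTCT.
Id2: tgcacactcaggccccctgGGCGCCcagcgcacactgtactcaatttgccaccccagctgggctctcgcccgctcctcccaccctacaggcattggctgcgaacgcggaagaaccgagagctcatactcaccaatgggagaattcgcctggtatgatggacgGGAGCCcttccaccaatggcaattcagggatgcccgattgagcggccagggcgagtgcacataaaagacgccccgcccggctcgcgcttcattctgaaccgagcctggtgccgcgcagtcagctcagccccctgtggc
Id3: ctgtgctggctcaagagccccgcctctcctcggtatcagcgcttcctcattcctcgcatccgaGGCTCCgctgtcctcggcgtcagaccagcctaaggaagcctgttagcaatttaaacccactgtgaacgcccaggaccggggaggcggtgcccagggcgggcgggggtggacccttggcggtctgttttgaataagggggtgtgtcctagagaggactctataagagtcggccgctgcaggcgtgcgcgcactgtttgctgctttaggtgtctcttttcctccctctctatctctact
Id4: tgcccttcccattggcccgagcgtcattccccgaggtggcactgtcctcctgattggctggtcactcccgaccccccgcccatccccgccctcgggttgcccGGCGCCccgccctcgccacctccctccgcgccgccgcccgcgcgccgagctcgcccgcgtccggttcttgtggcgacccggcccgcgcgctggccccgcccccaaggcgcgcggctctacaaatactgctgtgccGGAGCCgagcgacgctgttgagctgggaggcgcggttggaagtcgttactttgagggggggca
Smad6: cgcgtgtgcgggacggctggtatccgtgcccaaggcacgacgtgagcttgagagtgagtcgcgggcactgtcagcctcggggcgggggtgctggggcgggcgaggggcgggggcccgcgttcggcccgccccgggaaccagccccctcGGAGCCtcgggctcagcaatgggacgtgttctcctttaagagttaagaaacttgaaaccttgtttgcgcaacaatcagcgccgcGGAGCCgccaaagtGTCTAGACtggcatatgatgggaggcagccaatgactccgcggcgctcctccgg

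The GC-rich element was found in the Id2 window, starting at position -231, and in the Id4 window at -148, as well as in windows of Bmpr1a, Bmpr2 and Smad5, and it occurs in 11.9% of 32817 RefSeq promoter windows. The variant was found in all 4 windows printed, in windows of Bmp4 and Smad5, and in 30.8% of all windows. Smad6 alone of the 9 genes with a window held the palindrome, at position -4 to 4 across its start, and 0.213% of all windows hold it. The half-element by itself occurs in 88.0% of windows of this length. A match describes these letters only and shows no binding.

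Across genes, levels were compared per kb of exon, using the merged exon length of GENCODE M21. On this scale Id3 had the highest mean, at 30.1 CPM per kb in dKO and 43.0 in wt cells, although in dKO replicate 1 Id1 (29.9) stood above Id3 (23.2). Id1 (19.2 in dKO and 18.6 in wt), Bmp4 (17.9 and 19.9) and Id2 (17.3 and 18.1) followed, and their order cannot be told from the replicate spread, since Id1 alone ran from 8.49 to 29.9 in dKO cells. Bmpr1a came next, at 11.9 CPM per kb in dKO and 10.5 in wt cells, then Smad5 (4.71 and 4.21), Id4 (3.55 and 2.74) and Smad1 (2.39 and 2.04). Bmpr2 (0.591 in dKO and 0.480 in wt) and Smad6 (0.516 and 0.884) were lowest, and their order differed between libraries. The level of Bmpr2 is spread over 17983 bases of merged exons, so this scale understates a transcript that uses fewer.

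Other genes of the pathway were read from the same fit. Of 99 listed genes beyond the 10, 68 passed the filter, and the other 31 had at most 15 counts in any library. None of the 68 was called in edgeR's quasi-likelihood test with genotype alone in the model, which 0.0855% of all genes passed. Of the 68, 37 had positive and 31 negative log2 fold changes, beside 6966 and 7061 of all genes, and the median was 0.05. At an unadjusted p under 0.05 there was 1 of 68, Fstl1, beside 5.57% of all genes, and DESeq2 and limma-voom called 0. The genotypes did not overlap for 23 of the 68, beside 33.6% of all genes.

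Among ligands, 5 of 13 genes passed the filter and stayed below 10 CPM in every library. Bmp8b had 4.24 and 6.38 CPM in dKO and 6.72 and 9.60 CPM in wt libraries, and Bmp8a had 1.90 and 1.37 CPM in dKO and 2.42 and 3.16 CPM in wt libraries. Both lay lower in dKO cells without overlap, with log2 fold changes of -0.62 and -0.77 (edgeR adjusted p = 0.942 and 0.922), and these near-copies of each other may divide reads. Bmp7 had a log2 fold change of 0.14. The processing enzymes Pcsk6, Pcsk7 and Furin, which cut ligand precursors, had 0.24, 0.05 and -0.11. Pcsk6 differed between replicates, at 47.0 and 79.2 CPM in dKO and 37.8 and 68.6 CPM in wt libraries.

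Of 10 other receptors and co-receptors all passed the filter and none the test, with a median of -0.18. Acvr2a and Acvr2b, type II receptors shared with activin, had log2 fold changes of 0.15 and 0.25, and the co-receptor endoglin, Eng, had -0.26. Smad4, the common partner of SMAD1 and SMAD5, had 81.9 and 83.6 CPM in dKO and 71.4 and 81.9 CPM in wt libraries (log2 fold change 0.11, 95% interval -0.20 to 0.43). Smad9 was below the filter, with at most 12 counts, which leaves Smad1 and Smad5 as the measured transducing SMADs. Smad7, an inhibitory SMAD also induced by other TGF-beta family signals, had 76.4 and 178.5 CPM in dKO and 76.0 and 146.4 CPM in wt libraries. Its order between replicates was that of Smad6 and Id3.

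Antagonists outside the cell included the only pathway gene past an unadjusted p of 0.05 with genotype alone in the model. Fstl1, a secreted follistatin-like glycoprotein, had 130.1 and 160.2 CPM in dKO cells, against 98.9 in each wt library. Its log2 fold change was 0.55 (SE 0.14, 95% interval 0.21 to 0.90, edgeR adjusted p = 0.652), and both dKO libraries were above both wt libraries. Twsg1, a BMP-binding protein, had 0.25, and Bambi, a receptor-like decoy, had -0.08. Noggin, Nog, was at 0.859 and 0.954 CPM in dKO and 0.547 and 1.71 CPM in wt cells. Of 17 antagonists 9 passed the filter, with a median of -0.08.

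Inside the cell, all 20 regulators passed the filter, with 14 positive and 6 negative log2 fold changes and a median of 0.07. Over all genes 6966 were positive and 7061 negative. Lemd3, the inner nuclear membrane protein MAN1 that binds receptor SMADs and limits BMP signals, had 41.4 and 42.5 CPM in dKO and 40.3 and 39.6 CPM in wt libraries. For Lemd3 this is a log2 fold change of 0.07 (SE 0.13, 95% interval -0.24 to 0.38, edgeR adjusted p = 0.990). Usp9x, a deubiquitinase acting on SMAD4, had 0.25. Fkbp1a, which keeps type I receptors inactive, had 0.02, and Ppm1a, a SMAD phosphatase, had -0.13. The coactivators Ep300 and Crebbp had 0.11 and 0.19, and Yy1 had 0.09.

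Further target genes and the partners of Id proteins completed the list. Dusp9, a phosphatase acting on ERK that BMP induces in mouse embryonic stem cells, had 64.2 and 75.2 CPM in dKO and 79.0 and 104.3 CPM in wt libraries. Both dKO libraries lay below both wt libraries. With genotype alone in the model the log2 fold change was -0.40 (95% interval -0.83 to 0.04, edgeR adjusted p = 0.907). Of 11 other target genes 7 passed the filter, among them Smad7 and Bambi, given above with other lists. Of these 7, 6 had negative log2 fold changes, at a median of -0.22, beside 7061 of the 14027 genes tested. None of the 7 passed the test with genotype alone in the model. The E proteins Tcf3 and Tcf12, which Id proteins bind, had -0.13 and 0.31, and Usp1, a deubiquitinase that stabilises Id proteins, had 0.01. Among the neural and muscle factors that depend on E proteins, Neurog1, Neurog2, Neurog3, Myod1, Myf5, Atoh1, Olig1 and Olig2 were below the filter, with at most 11 counts in any library. Others of the list passed the filter and, with genotype alone in the model, not the test. Among them was Neurod1, at 5.89 and 3.46 CPM in dKO and 8.29 and 3.16 CPM in wt libraries.

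**Figure D5:**
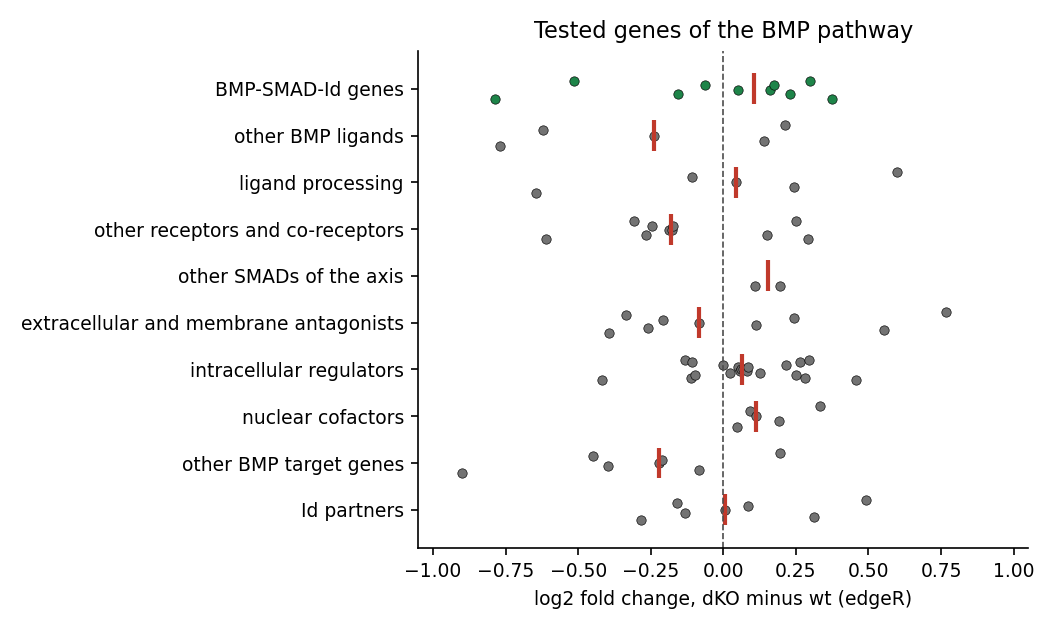
Log2 fold change, dKO minus wt, of each tested gene (points) by list, with the list's median in red and the median of all genes, -0.002, as a dashed line. Points of every list fall on both sides of 0 except the 2 other SMADs and the nuclear cofactors.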

How the data were processed

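Trizol was used for total RNA and Illumina TruSeq RNA for the libraries, per the labels' protocols. The table the authors deposited holds raw read counts per Ensembl gene and library. The submitters' processing notes name TopHat2 2.0.6, TopHat and HTSeq without saying what each did. Build, annotation and strand setting of the counting: not given in the sources used here. Positions are those of the table, whose genes reach 197054592 on chromosome 1, and they are not mixed with GRCm38 positions. Genes of the table overlap 3 members, with at most 9 counts each, and such genes are uncertain without strand.

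Symbols and merged exon lengths came from GENCODE M21 by gene ID (32919 of 37991 genes had symbols). After filterByExpr and TMM scaling, counts went into the robust quasi-likelihood F test of edgeR 4.0.16 (R 4.3.3) with genotype alone in the model, Benjamini-Hochberg over 14027 genes, threshold 0.05. Log2 fold changes are dKO minus wt, SEs come from the F statistic, and the scripts were tested on simulated data. An exact permutation test of 2 libraries against 2 could reach p = 0.333 at best and was not used.

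Alternatives were DESeq2 1.42.0, limma-voom (limma 3.58.1), other scaling and filters, a replicate block and each library left out. The members, the pathway lists and the tests were chosen with earlier results of these data known. All 10 members are named; of each other pathway list, genes past the threshold, up to 3 with an unadjusted p under 0.05, and otherwise those with the highest CPM up to 3, with Lemd3 always; of each marker list, the 3 with the highest CPM; further genes named were chosen after their values were seen. Some listed genes are not reported here.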

Additional observations from a re-analysis of the deposited data

How the results depend on the processing

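No setting other than a replicate block called any of the 10 genes or any other pathway gene. Over all genes 12 were called; leaving out the low-count filter gave 80, DESeq2 94, limma-voom 5, and fits without 1 of the libraries gave 18 to 27. Deviations from the genotype means correlated between libraries of the same number (r = 0.65 across genes), a hint from the data and not from the design, since only 2 pairs share numbers. With a replicate block 1299 genes (9.26% of those tested) were called, among them 1 of the 10 genes, Id3 (log2 fold change -0.51, 95% interval -0.72 to -0.31, adjusted p = 0.0013), and 5 other pathway genes: Fstl1 (0.55), Hes1 (0.49), Bmp1 (-0.68), Dusp9 (-0.39) and Msx2 (-0.88). Under the 7 settings that kept all libraries, 0 of 70 log2 fold changes of the 10 genes turned sign and 1 changed its call, that of Id3. With 1 library left out 5 of 40 turned sign and 0 were called; the ranges were -1.12 to 1.50 for Id1, -0.34 to 0.28 for Id2 and -1.72 to 0.32 for Smad6. That of Lmna, not called, ran from -0.45 to 0.00124. Lmnb1 and Lmnb2 kept their calls under all 11 alternatives. The Id sum differed by -21.2 CPM between genotypes, and by -27.0 to -15.7 with 1 library left out. A left-out library leaves its genotype with 1 sample, assumed to vary like the others. Both replicate numbers of the other genotype then stand against a single number, so gaps between replicates enter these values. Smad6, at 14 to 66 counts, is the gene most limited by depth.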

Other observations

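Gaps between replicates were also seen in pathway genes outside the 10. Of the 68 other pathway genes tested, 12 (17.6%) differed by at least 1.5-fold in the same direction in both genotypes, 6 higher in replicate 1 and 6 in replicate 2, beside 10.2% of all genes. Grem1, a secreted BMP antagonist, had 44 and 10 counts in dKO replicates 1 and 2, and 21 and 5 in wt replicates 1 and 2, a gap near that of Id1 in size. Msx2, a homeobox target of BMP signals, had 23 and 62 counts in dKO replicates 1 and 2, against 30 and 109 in wt replicates 1 and 2, an order opposite to that of its relative Msx1 (29 and 17 in dKO, 30 and 14 in wt). Skil, a repressor of SMAD activity, had 174.7 and 89.5 CPM in dKO and 147.4 and 80.5 CPM in wt replicates 1 and 2. These genes were chosen after their values were seen, and no test was made between replicate numbers.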
